A study of Mus musculus with 38 samples.

Results

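The genes described here are 8 regulators of gastrulation and early mesoderm, namely T (Brachyury), Eomes, Mixl1, Gsc, Mesp1, Tbx6, Hand1 and Kdr. They were taken by symbol from tables of 78202 mouse genes, and all 8 passed the filter on low values that left 70381 genes to test. What was measured on them is contact with proteins of the nuclear envelope. CUT&RUN, in which an antibody guides a nuclease that releases the DNA beside its target, was run for LAP2B, which sits in the inner membrane of the nucleus, for lamin B1 (LMNB1), a filament protein of the nuclear lamina, and with a non-specific antibody (IGG) as background.

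LAP2B was mapped in 24 libraries, 3 in each of 8 groups. The groups combine 4 genotypes with both stages, the stages being naive mouse embryonic stem (mES) cells, grown in 2i and LIF, and epiblast-like cells (EpiLCs), made from them with FGF and activin A. WT cells are a littermate line of the TKO cells, TKO cells lack all lamins, LBRKO cells are WT cells with frameshifts in the lamin B receptor gene Lbr, and QKO cells are TKO cells in which the Lbr alleles carry a frameshift and an in-frame deletion. QKO is a single clone, so differences between libraries are not differences between clones or lines. For LMNB1 and IGG only WT cells were used, with 3 libraries per stage. TKO cells carry trisomy 8, in part of the cells with loss of Y, and part of the WT cells lost Y, some of them with trisomies of 6 and 8 as well. No member lies on these chromosomes. Reads recovered over the gene tables, where bins shared between genes count more than once, came to 12028659 to 45689196 per library. The median gene held 36 to 135 reads. Reads come from genomic DNA, so neither transcripts of the members nor markers of the cell state were measured, and contact in all cells cannot be told apart from contact in part of them. In EpiLCs the study did not take LAP2B to represent the lamina.

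During gastrulation, cells of the epiblast move through the primitive streak under Nodal, Wnt and BMP signals and become mesoderm and endoderm. T, Eomes, Mixl1 and Gsc are transcription factors of the streak, Mesp1 marks nascent mesoderm, Tbx6 specifies paraxial mesoderm, Hand1 acts in lateral and extra-embryonic mesoderm, and Kdr encodes the VEGF receptor of blood and vessel progenitors. Chromatin at the lamina is mostly repressed, and these genes are largely silent in naive mES cells.

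Values are given on both of the following scales. Values on the spike-in scale are those deposited, the yeast-scaled coverage summed over the 1 kb bins that a gene touches, and so they grow with the length of a gene. Neighbouring bins of equal value enter this sum once, so a value can fall short of the full sum. How far that lowers a member in a library was not tested. The relative scale divides each library by its median gene and shows how a gene stands against the rest of its own library. Levels of different genes are compared only as the percentile of the value per bin among all genes tested. Changes are log2 differences ± SE from limma, called at an adjusted p under 0.05 over all genes tested. All 3 mutants of a stage are compared with the same 3 WT libraries.

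Tbx6, Mixl1 and Mesp1 gained relative LAP2B signal together in naive QKO cells, while Kdr was lower, at percentile 44.7 of all genes' changes. For this reason the 250 bases before the start of the canonical transcript of these 4 members are shown. They are printed 5′ to 3′ on the strand of the gene and were read from GRCm39, the build of the files (mm39). Capitals mark the GC box, the letters GGGCGG searched on both strands.
Tbx6 (chr7:126380405-126380654, plus strand): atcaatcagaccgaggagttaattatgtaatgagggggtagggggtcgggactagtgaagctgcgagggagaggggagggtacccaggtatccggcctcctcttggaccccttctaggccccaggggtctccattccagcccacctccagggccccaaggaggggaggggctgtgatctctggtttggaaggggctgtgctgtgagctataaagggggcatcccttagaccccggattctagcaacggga
Mixl1 (chr1:180524600-180524849, minus strand): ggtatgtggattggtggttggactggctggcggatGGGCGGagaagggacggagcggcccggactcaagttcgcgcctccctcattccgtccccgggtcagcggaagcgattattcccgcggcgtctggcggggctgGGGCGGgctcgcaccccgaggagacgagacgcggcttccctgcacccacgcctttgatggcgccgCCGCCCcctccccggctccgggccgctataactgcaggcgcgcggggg
Mesp1 (chr7:79443537-79443786, minus strand): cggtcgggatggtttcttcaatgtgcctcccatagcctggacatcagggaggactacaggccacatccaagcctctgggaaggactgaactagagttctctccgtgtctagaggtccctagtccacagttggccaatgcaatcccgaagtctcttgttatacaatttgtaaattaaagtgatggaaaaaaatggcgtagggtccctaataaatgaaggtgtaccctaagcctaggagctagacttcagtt
Kdr (chr5:76139119-76139368, minus strand): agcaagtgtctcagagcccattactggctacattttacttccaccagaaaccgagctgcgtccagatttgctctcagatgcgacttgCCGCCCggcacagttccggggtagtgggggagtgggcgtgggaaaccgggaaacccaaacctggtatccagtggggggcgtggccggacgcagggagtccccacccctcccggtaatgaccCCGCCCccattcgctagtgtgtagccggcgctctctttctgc
GC boxes were found in 3 copies before Mixl1, in 2 each before T, Kdr and Hand1, in 1 before Gsc, and in none before Tbx6, Mesp1 or Eomes. Of 20852 protein-coding promoters of the same length, 30.6% held one. The T-box letters TCACACCT, searched likewise and held by 1.08% of these promoters, were in none of the 8 windows. The upstream window of Mixl1 was 71.6% G and C, at percentile 96.3 of all promoters. That of Kdr stood at 61.6% and percentile 82.1, that of Tbx6 at 59.6% and 77.3, and that of Mesp1 at 47.6% and 34.0. The part of these windows in the changes was not tested.

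In naive WT cells the mean ranks of the members for contact with the lamina ran from the lower part of the genes tested, for T (Brachyury), to above the middle, for Gsc. By LMNB1 per bin, the mean percentile over 3 libraries was 23.8 ± 2.0 (SD) for T (Brachyury), 29.8 ± 21.9 for Tbx6, 31.3 ± 12.1 for Mesp1, 32.3 ± 24.3 for Mixl1, 36.6 ± 4.4 for Kdr, 52.2 ± 12.7 for Hand1, 57.9 ± 11.5 for Eomes and 68.8 ± 16.1 for Gsc. Except for Kdr and Hand1, neighbours in this order differed by less than the larger of their SDs. LAP2B gave 32.9 ± 17.7 for Tbx6, 35.1 ± 30.5 for Mesp1, 35.2 ± 4.6 for T (Brachyury), 39.5 ± 3.2 for Mixl1, 48.1 ± 10.9 for Kdr, 58.3 ± 12.1 for Hand1, 62.1 ± 11.7 for Eomes and 67.7 ± 5.9 for Gsc. The fewest recovered reads in a naive WT library were 10 for Gsc (IGG), 14 for Mesp1 (LAP2B), and 24 for Mixl1 and 28 for Tbx6 (both LMNB1). Kdr had no fewer than 328 in any library. IGG, the background, gave higher mean percentiles than LAP2B and LMNB1 for every member except Gsc (46.0 ± 39.1). It placed T (Brachyury) at 40.6 ± 29.2, Mixl1 at 52.2 ± 30.4, Mesp1 at 52.2 ± 20.2, Kdr at 54.7 ± 9.7, Tbx6 at 76.0 ± 15.1, Eomes at 79.9 ± 10.4 and Hand1 at 81.9 ± 8.0. IGG in the mutants was not analysed here, so the mutant values stand without their own background.

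**Figure D1:**
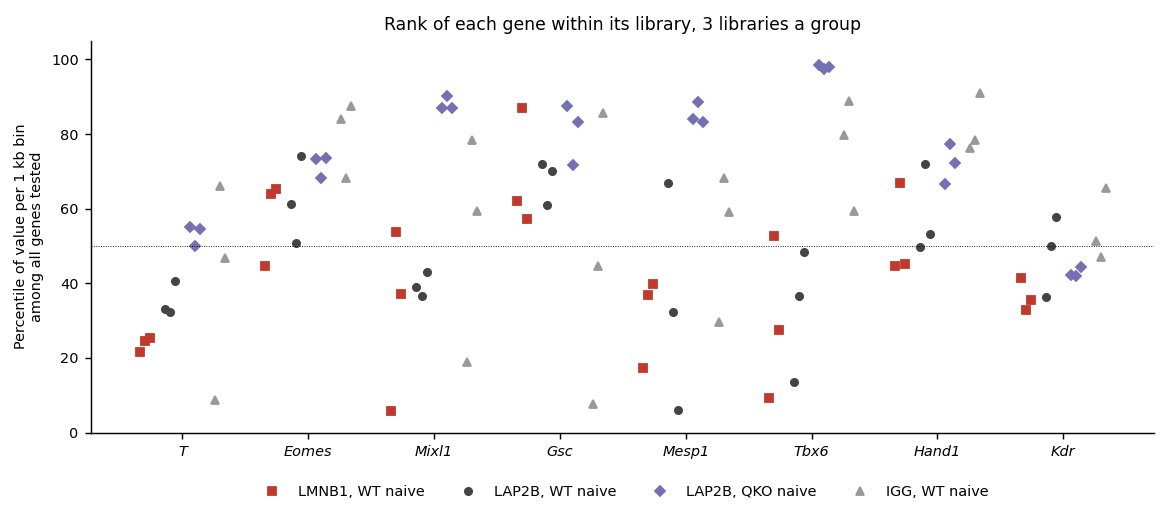
Percentile of each member's value per 1 kb bin among all genes tested in the same library (vertical axis) for LMNB1, LAP2B and IGG in naive WT cells and LAP2B in naive QKO cells, with a point for each of 3 libraries. Tbx6 moves from a mean of 32.9 in WT to 97.9 in QKO for LAP2B, while Kdr stays near the middle.

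The members called as changed on the relative scale numbered 5, 3 and 5 of 8 in naive LBRKO, TKO and QKO cells and 0, 2 and 1 of 8 in EpiLCs. In naive LBRKO cells 5 of 8 members were called, all higher, when 56.6% of all genes were called (28.9% higher and 27.7% lower). In naive TKO cells 3 of 8 were called, 2 higher and 1 lower, against 49.4% of all genes (21.8% higher and 27.6% lower). In naive QKO cells 5 of 8 were called, 4 higher and 1 lower, against 75.6% of all genes (33.1% higher and 42.5% lower). In EpiLCs none was called in LBRKO (23.4% of all genes, 13.3% higher and 10.1% lower), 2 of 8 in TKO, both higher (18.6% of all genes, 8.68% higher and 9.97% lower), and 1 of 8 in QKO, also higher (36.1% of all genes, 18.3% higher and 17.8% lower). The 3 mutant libraries did not overlap the 3 WT libraries for 4, 2 and 5 members in naive LBRKO, TKO and QKO, beside 57.4%, 51.1% and 75.4% of all genes, and for 0, 2 and 2 members in EpiLCs, beside 38.5%, 36.8% and 49.6%. For EpiLC LBRKO, limma found 0 members also at an unadjusted p under 0.05, and edgeR found 0.

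The members' median change lay above that of all genes in 5 of these 6 comparisons. In naive cells it was 0.48 in LBRKO, 0.32 in TKO and 0.47 in QKO, where all genes stood at 0.04, -0.11 and -0.23. In EpiLCs it was -0.01, 0.30 and 0.24, beside 0.01, 0.04 and 0.02 for all genes. All genes here include non-coding ones, and changes were not compared with those of protein-coding genes alone. Among 20852 protein-coding genes, mean LAP2B percentiles in naive WT and QKO were 70.5 and 64.7 for Eomes, and 66.4 and 64.7 for Hand1. They were 75.6 and 75.8 for Gsc, 43.2 and 44.1 for T (Brachyury), and 56.7 and 34.1 for Kdr. Tbx6 had 38.9 and 98.1, Mixl1 47.9 and 84.9, and Mesp1 40.2 and 81.2. Before the pseudocount, scaling by the mean gene in place of the median gene adds a constant to each comparison, of 0.12, 0.33 and 0.27 in naive LBRKO, TKO and QKO and of -0.05, 0.08 and 0.11 in EpiLCs. In the fitted changes the shift comes close to this constant without equalling it. Scaling by the mean gene moved the share of higher genes among all called from 44.1 to 69.4% in naive TKO, from 46.5 to 62.9% in EpiLC TKO and from 50.6 to 62.1% in EpiLC QKO. Members called with that scale and not with the median gene were T (Brachyury) in naive LBRKO (0.57, limma adjusted p = 0.028), Eomes (0.50, 0.021), Mixl1 (0.72, 0.0032), Gsc (0.75, 0.022) and Hand1 (0.53, 0.041) in naive TKO, Eomes (0.58, 0.0038) and Hand1 (0.57, 0.017) in naive QKO, Hand1 in EpiLC TKO (0.59, 0.045) and Mixl1 in EpiLC QKO (0.54, 0.032), all higher.

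**Figure D2:**
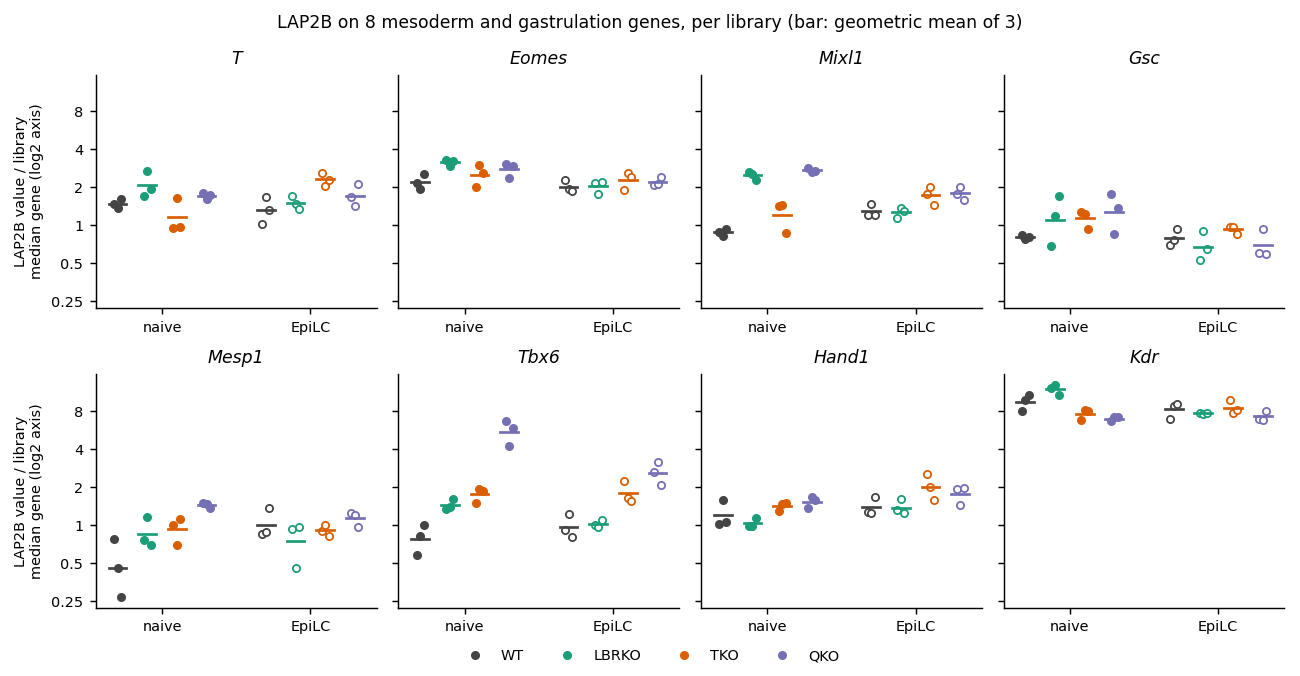
Relative LAP2B value of each member (log2 axis, in multiples of the library's median gene) in each of 24 libraries, filled points for naive cells and open points for EpiLCs, with the geometric mean of 3 as a bar. Naive QKO libraries lie far above WT for Tbx6, Mixl1 and Mesp1, and below WT for Kdr.

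T (Brachyury), the T-box factor that defines the streak and its mesoderm (ENSMUSG00000062327, chr17:8653062-8661328, plus strand, 8 exons), behaved differently with stage. Relative values in naive cells were 1.47, 1.36 and 1.63 (WT), 1.72, 2.69 and 1.95 (LBRKO), 0.96, 1.65 and 0.97 (TKO) and 1.79, 1.62 and 1.75 (QKO). LBRKO lay above WT in every library yet missed the threshold (0.46 ± 0.22, limma adjusted p = 0.0634), and neither TKO (-0.34 ± 0.22, adjusted p = 0.194) nor QKO (0.20 ± 0.22, adjusted p = 0.409) was called by limma. In EpiLCs the values were 1.03, 1.69 and 1.32 (WT), 1.70, 1.48 and 1.35 (LBRKO), 2.62, 2.06 and 2.29 (TKO) and 1.68, 1.43 and 2.12 (QKO). Every EpiLC TKO library lay above every EpiLC WT library, and the rise of 0.76 ± 0.22 was called (limma adjusted p = 0.0103). The TKO effect differed between stages by 1.09 ± 0.31 (limma interaction, adjusted p = 0.0157). The EpiLC call was lost without TKO replicate 1 (0.67, adjusted p = 0.063) or WT replicate 1 (0.59, adjusted p = 0.11), and the interaction without naive TKO replicate 3 (0.98, adjusted p = 0.051). The LBRKO rise, in turn, passed without naive LBRKO replicate 1 (0.59, adjusted p = 0.034), and the TKO fall without naive TKO replicate 2 (-0.57, adjusted p = 0.037).

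Eomes, the other T-box factor of the streak (ENSMUSG00000032446, chr9:118307280-118315200, plus strand, 6 exons), was called on the relative scale in naive LBRKO cells, and also in naive TKO and QKO cells when the mean gene was the scale. In naive libraries the relative values read 2.17, 1.93 and 2.54 (WT), 3.32, 2.95 and 3.24 (LBRKO), 2.01, 3.00 and 2.60 (TKO) and 3.04, 2.38 and 2.97 (QKO). Only LBRKO lay wholly above WT, by 0.51 ± 0.18 (limma adjusted p = 0.0136), a call lost without WT replicate 2 (0.42, adjusted p = 0.070). TKO (0.18 ± 0.18, adjusted p = 0.412) and QKO (0.33 ± 0.18, adjusted p = 0.0917) were not called by limma, the latter passing without QKO replicate 2 (0.43, adjusted p = 0.042) or WT replicate 3 (0.43, adjusted p = 0.047). In EpiLCs the values ran from 1.87 to 2.27 in WT, 1.78 to 2.21 in LBRKO, 1.89 to 2.61 in TKO and 2.09 to 2.42 in QKO, and the changes of 0.01 to 0.17 were not called.

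Mixl1, a homeobox factor of the streak that acts in mesendoderm (ENSMUSG00000026497, chr1:180520608-180524599, minus strand, 2 exons), had the largest gain of the members in naive LBRKO cells and also gained in naive QKO cells. The relative values of naive libraries were 0.89, 0.82 and 0.94 (WT), 2.63, 2.56 and 2.3 (LBRKO), 1.42, 1.45 and 0.87 (TKO) and 2.86, 2.63 and 2.69 (QKO). The 3 LBRKO and the 3 QKO libraries all lay far above the highest WT library. The change was 1.40 ± 0.20 in LBRKO (limma adjusted p = 6.75e-08) and 1.52 ± 0.20 in QKO (adjusted p = 3e-09), at percentiles 98.0 and 86.3 of all genes' changes. In TKO it was 0.42 ± 0.20 and not called (limma adjusted p = 0.0794), although it passed without TKO replicate 3 (0.65, adjusted p = 0.013), and QKO exceeded TKO by 1.1 ± 0.20 (adjusted p = 8.67e-06). EpiLC values were 1.20, 1.48 and 1.21 (WT), 1.15, 1.38 and 1.31 (LBRKO), 1.78, 2.00 and 1.44 (TKO) and 1.78, 2.02 and 1.59 (QKO). Here LBRKO overlapped WT (-0.01 ± 0.20), and TKO (0.39 ± 0.20) and QKO (0.44 ± 0.20) missed the threshold at limma adjusted p = 0.175 and 0.0846. The effect was smaller in EpiLCs than in naive cells, by an interaction of -1.42 ± 0.29 for LBRKO (limma adjusted p = 0.000345) and -1.08 ± 0.29 for QKO (adjusted p = 0.00172).

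Gsc, a homeobox factor of the anterior streak and organizer (ENSMUSG00000021095, chr12:104437468-104439632, minus strand, 3 exons), varied widely between libraries of a mutant. Naive libraries gave relative values of 0.83, 0.77 and 0.81 (WT), 0.68, 1.18 and 1.70 (LBRKO), 1.28, 1.23 and 0.94 (TKO) and 1.76, 0.86 and 1.38 (QKO). WT libraries were tightly grouped and the mutants were not. QKO was called higher (0.61 ± 0.27, limma adjusted p = 0.0378), but the call was lost without the filter on low values (adjusted p = 0.063) and on leaving out 5 of the 6 libraries in turn: QKO replicate 1 (0.40, adjusted p = 0.23), QKO replicate 3 (0.56, adjusted p = 0.096), or WT replicate 1, 2 or 3 (0.63, 0.59 and 0.61, adjusted p = 0.057, 0.075 and 0.062). LBRKO (0.43 ± 0.27, limma adjusted p = 0.172) and TKO (0.45 ± 0.27, adjusted p = 0.160) were not called, LBRKO passing without its replicate 1 (0.75, adjusted p = 0.026). EpiLC values ran from 0.70 to 0.93 in WT, 0.53 to 0.90 in LBRKO, 0.85 to 0.98 in TKO and 0.60 to 0.94 in QKO, all groups overlapping WT.

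Mesp1, the bHLH factor of nascent and cardiac mesoderm (ENSMUSG00000030544, chr7:79441989-79443536, minus strand, 2 exons), was higher in all 3 naive mutants. Relative to the median gene, naive libraries stood at 0.78, 0.46 and 0.27 (WT), 0.77, 1.15 and 0.70 (LBRKO), 1.01, 0.70 and 1.12 (TKO) and 1.51, 1.47 and 1.37 (QKO). Only QKO lay wholly above WT, whose replicate 1 reached into the LBRKO and TKO values. The change was 0.76 ± 0.28 in LBRKO (limma adjusted p = 0.0178), 0.87 ± 0.28 in TKO (adjusted p = 0.00823) and 1.46 ± 0.28 in QKO (adjusted p = 6.75e-06). Without WT replicate 3, the lowest library, it fell to 0.45 in LBRKO and 0.56 in TKO and was no longer called (adjusted p = 0.19 and 0.11), and LBRKO also lost its call without LBRKO replicate 2 (0.56, adjusted p = 0.12) or when the fit held only the groups compared (adjusted p = 0.054). QKO kept its call on leaving out each of the 6 libraries in turn, at 1.15 to 1.77. In EpiLCs the values were 0.85, 0.88 and 1.36 (WT), 0.93, 0.46 and 0.97 (LBRKO), 0.91, 1.00 and 0.83 (TKO) and 1.24, 1.20 and 0.97 (QKO). All overlapped WT, with changes of -0.38, -0.14 and 0.15. The QKO effect differed between stages by -1.30 ± 0.39 (limma interaction, adjusted p = 0.00544) and the LBRKO effect by -1.14 ± 0.39 (adjusted p = 0.0324). The latter was lost without LBRKO EpiLC replicate 2 (-0.83, adjusted p = 0.15), LBRKO naive replicate 2 (-0.94, adjusted p = 0.11), WT EpiLC replicate 3 (-0.94, adjusted p = 0.11), WT naive replicate 2 (-1.13, adjusted p = 0.057) or WT naive replicate 3 (-0.83, adjusted p = 0.12), and by edgeR (-1.12, adjusted p = 0.061).

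Tbx6, the T-box factor of paraxial mesoderm (ENSMUSG00000030699, chr7:126380655-126384732, plus strand, 8 exons), changed most. The naive libraries had relative values of 0.58, 0.82 and 1.00 (WT), 1.33, 1.39 and 1.60 (LBRKO), 1.49, 1.92 and 1.88 (TKO) and 6.68, 4.26 and 5.84 (QKO). All 9 mutant libraries lay above all 3 WT libraries. The change was 0.80 ± 0.22 in LBRKO (limma adjusted p = 0.00151), 1.07 ± 0.22 in TKO (adjusted p = 4.96e-05) and 2.66 ± 0.22 in QKO (adjusted p = 4.07e-16), which is 6.33-fold and at percentile 98.1 of all genes' changes. QKO exceeded TKO by 1.59 ± 0.22 (limma adjusted p = 1.29e-08). None of these 4 calls was lost on leaving out any library. Per bin, Tbx6 moved from percentile 32.9 ± 17.7 (SD) in WT to 71.9 ± 5.4 in LBRKO, 86.7 ± 6.0 in TKO and 97.9 ± 0.5 in QKO.

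In EpiLCs Tbx6 was the member called in QKO on the relative scale, joined by Mixl1 without the filter on low values (0.44, limma adjusted p = 0.047) or with the mean gene as scale. Its values were 0.92, 1.23 and 0.80 (WT), 1.00, 0.98 and 1.09 (LBRKO), 2.24, 1.63 and 1.55 (TKO) and 2.64, 3.19 and 2.09 (QKO). TKO and QKO lay wholly above WT, by 0.82 ± 0.22 (limma adjusted p = 0.00562) and 1.34 ± 0.22 (adjusted p = 2.31e-06), and LBRKO lay within it (0.07 ± 0.22). QKO minus TKO was 0.52 ± 0.22 and missed the threshold (adjusted p = 0.256). The TKO call was lost without TKO replicate 1 (0.66, adjusted p = 0.061). The QKO effect was smaller than in naive cells (limma interaction -1.32 ± 0.30, adjusted p = 0.000341), the TKO effect was not shown to differ (-0.25 ± 0.30, adjusted p = 0.659), and the LBRKO difference of -0.73 ± 0.30 missed the threshold (adjusted p = 0.0833) but passed without WT naive replicate 3 (-0.88, adjusted p = 0.035).

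Hand1, the bHLH factor of lateral and extra-embryonic mesoderm (ENSMUSG00000037335, chr11:57719531-57723644, minus strand, 2 exons), was not called in a mutant on the relative scale, although it was higher in naive TKO, naive QKO and EpiLC TKO with the mean gene as scale and lower in naive QKO on the spike-in scale. On the relative scale the naive values were 1.03, 1.59 and 1.06 (WT), 0.99, 0.98 and 1.13 (LBRKO), 1.29, 1.48 and 1.49 (TKO) and 1.37, 1.66 and 1.57 (QKO), and WT replicate 2 lay above every LBRKO and TKO library and within QKO. The changes were -0.20, 0.22 and 0.32, each ± 0.22 (limma adjusted p = 0.438, 0.409 and 0.170). Without WT replicate 2 the QKO change was 0.51 and passed (adjusted p = 0.046). EpiLC values were 1.27, 1.25 and 1.66 (WT), 1.32, 1.60 and 1.24 (LBRKO), 2.54, 2.02 and 1.57 (TKO) and 1.93, 1.44 and 1.98 (QKO), with a TKO change of 0.51 ± 0.22 (limma adjusted p = 0.0889) that passed without TKO replicate 3 (0.68, adjusted p = 0.047). All 5 bins of Hand1 are shared with an unnamed lncRNA gene (ENSMUSG00000142658), so its value cannot be told apart from that part of the lncRNA gene.

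Kdr, the VEGF receptor and by far the longest member (ENSMUSG00000062960, chr5:76093487-76139884, minus strand, 30 exons in 46398 bp), was the member called lower on the relative scale. Naive relative values came to 8.00, 9.86 and 10.8 (WT), 12.2, 12.9 and 10.7 (LBRKO), 6.82, 8.20 and 8.03 (TKO) and 6.62, 7.24 and 7.13 (QKO). QKO lay wholly below WT, at -0.43 ± 0.13 (limma adjusted p = 0.00191), TKO was lower at -0.30 ± 0.13 (adjusted p = 0.0409), and LBRKO was higher at 0.33 ± 0.13 (adjusted p = 0.0233). The Kdr change in QKO stood at percentile 44.7 of all genes' changes, whose median was -0.23. With scaling by the mean gene the TKO change turned to 0.02 (adjusted p = 0.90) and the QKO change to -0.17 (adjusted p = 0.26), so on the relative scale its fall depends on the median gene as the reference. The LBRKO call was lost without WT replicate 1 (0.21, adjusted p = 0.20) or LBRKO replicate 1 or 2 (0.31 and 0.27, adjusted p = 0.058 and 0.095), and the TKO call without TKO replicate 1 (-0.22, adjusted p = 0.20) or WT replicate 2 or 3 (-0.27 and -0.21, adjusted p = 0.11 and 0.20). EpiLC values ran from 6.98 to 9.11 in WT, 7.58 to 7.72 in LBRKO, 7.73 to 9.73 in TKO and 6.82 to 8.09 in QKO, all overlapping. No stage difference in a mutant's effect on Kdr was called, although that of LBRKO (-0.43 ± 0.18, adjusted p = 0.0755) passed without WT EpiLC replicate 1 (-0.55, adjusted p = 0.023) or WT naive replicate 3 (-0.53, adjusted p = 0.034).

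On the spike-in scale, which keeps the total amount of released DNA, the median gene itself moved, by 0.21 in naive LBRKO, -0.65 in naive TKO and -1.24 in naive QKO and by 0.04, -0.20 and -0.76 in EpiLCs. Naive LBRKO kept 4 members higher (46% of all genes called, 28.2% higher, and 49.1% with libraries that did not overlap): Mixl1 by 1.59 ± 0.31 (limma adjusted p = 4.87e-06), Tbx6 by 0.98 ± 0.31 (adjusted p = 0.00514), Mesp1 by 0.94 ± 0.34 (adjusted p = 0.0145) and Eomes by 0.69 ± 0.29 (adjusted p = 0.0384). Only the Mixl1 call survived leaving out each library. Eomes lost its call without LBRKO replicate 2 or 3 (0.73 and 0.56) or WT replicate 1 or 2 (0.58 and 0.71), Tbx6 without LBRKO replicate 3 (0.79) or WT replicate 1 (0.70), and Mesp1 without LBRKO replicate 2 (0.73) or WT replicate 3 (0.62). Without LBRKO replicate 1, T (Brachyury), Gsc and Kdr passed as well, at 0.90, 1.06 and 0.62, and Kdr also without WT replicate 2 (0.66).

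In naive TKO cells 2 members were called on this scale, both lower, when 50% of all genes were called (2.43% higher and 47.5% lower). T (Brachyury) fell by 0.90 on the log2 scale (± 0.31, limma adjusted p = 0.00886) and Kdr changed by -0.92 ± 0.24 (adjusted p = 0.000693). The former was lost without TKO replicate 1 (-0.64) or 3 (-0.75), and Eomes passed without TKO replicate 2 (-0.73). In naive QKO cells 5 members were called, against 75.7% of all genes (10.1% higher and 65.5% lower, and 77.7% with libraries that did not overlap). Tbx6 was the single member that rose, by 1.47 ± 0.31 (limma adjusted p = 3.93e-06), with spike-in values of 1.23, 2.35 and 2.37 in WT and 7.28, 3.93 and 6.28 in QKO that did not overlap. Kdr (-1.65 ± 0.24, adjusted p = 5.54e-11), T (Brachyury) (-0.95 ± 0.31, adjusted p = 0.00292), Eomes (-0.86 ± 0.29, adjusted p = 0.00443) and Hand1 (-0.82 ± 0.31, adjusted p = 0.0128) fell, Hand1 no longer without WT replicate 2 (-0.52, adjusted p = 0.17). Mixl1 (0.35 ± 0.31) and Mesp1 (0.35 ± 0.34) were not called here, although the Mixl1 libraries of the groups did not overlap, so their relative gain was not shown in spike-in units.

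EpiLC QKO cells had 3 members called, all lower, on the spike-in scale (55.8% of all genes called, 55.7% lower), namely Kdr (-1.05 ± 0.24, limma adjusted p = 8.93e-05), Gsc (-0.94 ± 0.34, adjusted p = 0.0121) and Eomes (-0.72 ± 0.29, adjusted p = 0.0249). Their mean spike-in LAP2B values in EpiLC QKO were 10.9, 1.05 and 3.29. In WT EpiLCs the IGG means of these members were 10.3 ± 5.38 (SD), 1 ± 0.657 and 2.3 ± 1.3. The study gives no scaling constant for IGG, and LAP2B was not tested against IGG. Gsc lost its call without QKO replicate 3 (-0.83) or WT replicate 3 (-0.73), and Eomes without QKO replicate 1 or 2 (-0.73 and -0.67) or WT replicate 1 or 3 (-0.57 and -0.67). Without WT replicate 2, Mesp1 (-0.92) and Hand1 (-0.74) passed too. Tbx6 was at 0.51 ± 0.31 (limma adjusted p = 0.142), its libraries lying above WT without overlap. Over all genes, 65.4% had libraries that did not overlap, in either direction, and 0.118% were called higher. The Tbx6 change stood at percentile 99.6 of all genes' changes. EpiLC LBRKO and TKO had no member called by limma, at an unadjusted p under 0.05 either, and none by edgeR (9.02% and 9.46% of all genes were called).

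Between naive WT cells and WT EpiLCs few members passed the test. For LAP2B on the relative scale Mesp1 alone was called, higher by 0.97 ± 0.28 (limma adjusted p = 0.00548), when 32.2% of all genes were called (15.1% higher), and the share of higher genes among all called was 46.9%, or 75.8% with scaling by the mean gene. The Mesp1 call was lost without WT EpiLC replicate 3 (0.77, adjusted p = 0.058) or WT naive replicate 3 (0.67, adjusted p = 0.072). On the spike-in scale it was again the member called (1.16 ± 0.34, adjusted p = 0.0109, 12.1% of all genes called), and again not without these libraries (0.85 and 0.83). IGG over Mesp1 moved the same way, from 0.50, 0.73 and 0.67 in naive cells to 1.94, 0.77 and 0.99 in EpiLCs on the relative scale, a change of 0.78 ± 0.30 that was not called (limma adjusted p = 0.221), and its part in the LAP2B change was not tested. Mixl1 LAP2B values did not overlap between the stages, as for 39.4% of all genes. They differed by 0.50 ± 0.20, just short of the threshold (limma adjusted p = 0.0515), which was passed with the mean gene as scale (0.70, adjusted p = 0.007) and without the filter on low values (adjusted p = 0.028).

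The LMNB1 change from naive cells to EpiLCs was above 0 for 7 of 8 members on the relative scale (median 0.27, all genes -0.04), and none passed the test. The IGG change was above 0 for 6 of 8 members (median 0.39, all genes -0.02), and its part in the LMNB1 change was not tested. For LMNB1, T (Brachyury) came nearest to a call, at 0.56 ± 0.22 (limma adjusted p = 0.085). Its naive relative values of 0.96, 1.22 and 1.21 and EpiLC values of 1.71, 1.76 and 1.62 did not overlap, as for 32.3% of all genes. It was the single member at an unadjusted p under 0.05 on either scale, 0 passed in edgeR, and limma called 13.4% of all genes on the relative scale (6.34% higher and 7.09% lower) and 8.25% on the spike-in scale. The share of higher genes among those called was 47.2% and became 73.8% with the mean gene as scale, under which T (Brachyury) passed (0.72, adjusted p = 0.044). On the spike-in scale T (Brachyury) passed without WT EpiLC replicate 2 (0.95, adjusted p = 0.03) or WT naive replicate 3 (0.99, adjusted p = 0.045), and Mesp1 without WT EpiLC replicate 2 (1.04, adjusted p = 0.033). For T (Brachyury) LAP2B moved the other way, by -0.16 ± 0.22 (adjusted p = 0.611), and IGG by 0.59 ± 0.235 (adjusted p = 0.251, not called).

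IGG itself was called on no member by limma, when 0.49% of all genes were called on the relative scale and 0 on the spike-in scale, and edgeR called 0. The share of higher genes among those called was 14.8%, or 34.6% with the mean gene as scale. At an unadjusted p under 0.05 there were 3 on the relative scale (T, Mesp1 and Hand1) and 5 on the spike-in scale. All 5 of the latter passed without WT EpiLC replicate 3 (T 1.97, Mixl1 1.62, Gsc 1.86, Mesp1 2.05 and Hand1 2.09). IGG over all genes rose too on the spike-in scale, with a median change of 0.92. For 54.5% of all genes the IGG libraries of the stages did not overlap on that scale. Leaving out each library in turn called 0 to 11675 of all genes there, so these passes are not particular to the members. Hand1 had the highest IGG rank of the members in EpiLCs, percentile 97.1 ± 2.0 (SD), beside 78.7 (72.0 to 90.2 over libraries) for LAP2B and 66.5 ± 16.1 for LMNB1.

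The question whether a mutant acted on the members alike in both stages was put to limma as an interaction. Called were 2 members for LBRKO (Mixl1 and Mesp1, both with the lower effect in EpiLCs, 19.8% of all genes called), 1 for TKO (T, with the higher effect in EpiLCs, 9.6% of all genes) and 3 for QKO (Mixl1, Mesp1 and Tbx6, all lower in EpiLCs, 45.8% of all genes). The share of higher genes among all called moved from 51.7 to 30.8% for LBRKO and from 60.3 to 15.8% for TKO with scaling by the mean gene, which also ended the T (Brachyury) call (0.87, adjusted p = 0.07) and made Mesp1 pass for TKO (-1.20, adjusted p = 0.043). That Mesp1 difference was otherwise -1.0 ± 0.39 (limma adjusted p = 0.094) and passed as well without WT naive replicate 1 (-1.32, adjusted p = 0.026). Gsc passed for QKO without QKO naive replicate 2 (-1.04, adjusted p = 0.027).

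By their medians, the neighbourhoods of Tbx6, Mesp1, Mixl1, T (Brachyury) and Hand1 changed in the same direction as these members in naive QKO cells. T (Brachyury) and Hand1 were not called themselves. The neighbour medians of Gsc, Eomes and Kdr had the opposite sign to the member. Of the 107 genes that start within 500 kb of Tbx6 and share no bin with it, all 107 were called higher in naive QKO cells, with a median change of 2.31 and a range of 0.71 to 3.59, and 29 exceeded Tbx6. In EpiLC QKO 86 of these 107 were called, all higher, with a median of 0.83, and 2 exceeded Tbx6 at 1.34. Around Mesp1, 61 of 64 genes were called higher in naive QKO (median 1.40), and around Mixl1 64 of 66 (median 1.27). Around T (Brachyury), at 0.20, 8 of 27 were called higher and 1 lower there (median 0.24). Around Hand1, at 0.32, 24 of 55 were called higher and 5 lower (median 0.29). In naive LBRKO, 50 of the 66 genes near Mixl1 were called, all higher, with a median of 0.93, and 5 exceeded Mixl1 at 1.40. In naive TKO, 81 of 107 genes near Tbx6 (median 0.76) and 41 of 64 near Mesp1 (median 0.70) were called, all higher. Gsc stood above most of its 47 neighbours in naive QKO, of which 32 were called lower and 5 higher, with a median of -0.91 and 2 above Gsc. The lower calls lay mostly from 66.82 kb downstream on. The nearest downstream gene, at 30.64 kb, was called higher (0.45), and the nearest upstream gene, at -35.83 kb, lower (-0.38). The call of Gsc itself was lost on leaving out 5 of 6 libraries. Eomes was likewise above the median of its 26 neighbours (-0.23, 10 lower and 3 higher), and Kdr below that of its 33 (0.02, 9 higher and 3 lower). In EpiLC TKO, Tbx6 at 0.82 and T (Brachyury) at 0.76 stood above medians of 0.30 and 0.26. Called or not, 2 of 107 and 1 of 27 neighbours exceeded the member. Mesp1 stood below most of its neighbours in EpiLC LBRKO (-0.38, median 0.09) and EpiLC TKO (-0.14, median 0.36). There 59 and 62 of 64 neighbours exceeded Mesp1, while 2 and 18 were called higher. Neighbouring genes are not independent measurements. The median gene on the 7 chromosomes of the members moved by -0.52 to 0.79 in naive QKO cells. Hand1, T (Brachyury) and Kdr lay below the median of their own chromosome (0.79, 0.28 and 0.07). The other members lay above theirs, with -0.20 for Tbx6 and Mesp1 and -0.52 for Mixl1. The part of whole chromosomes in the changes was not tested.

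**Figure D3:**
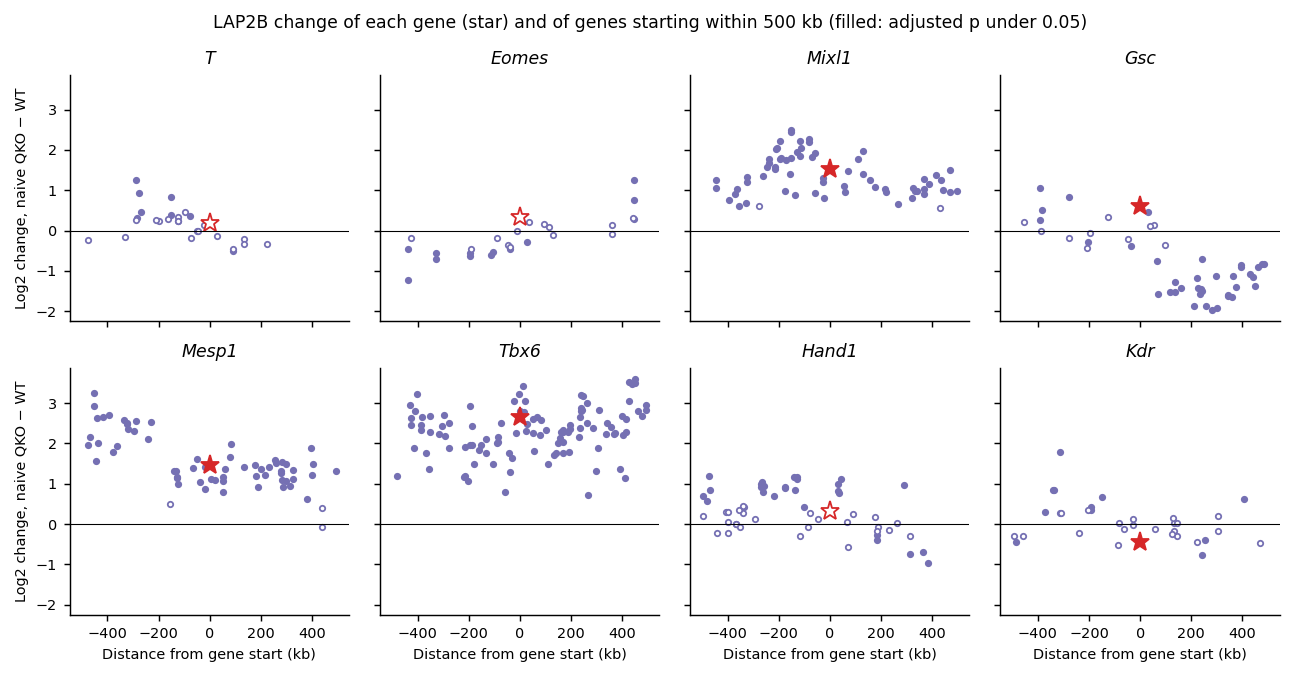
Log2 change in LAP2B in naive QKO against WT cells (vertical axis, relative scale) of each member (star) and of the tested genes that start within 500 kb and share no bin with it (circles), by distance from the member's start in kb along its strand, filled where the limma adjusted p is under 0.05. All 107 neighbours of Tbx6 lie above 0, while 32 of 47 neighbours of Gsc are called lower.

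Base composition of the surroundings differed between the members. In the 100 kb around the start, G and C made up 50.1% for Tbx6 (percentile 92.8 of all genes), 49.2% for Mesp1 (88.8), 48.9% for Hand1 (87.3), 48.1% for Gsc (83.4), 46.8% for T (Brachyury) (75.8), 45.4% for Eomes (66.3), 43.7% for Kdr (51.0) and 43.3% for Mixl1 (47.2), with a median of 43.6% over genes. In the same order of genes, the relative LAP2B changes in naive QKO cells were 2.66, 1.46, 0.32, 0.61, 0.20, 0.33, -0.43 and 1.52. The part of GC content in the changes was not tested.

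Other genes of gastrulation gave the members a frame. A list of 69 genes tested, made of ligands and inhibitors, receptors and transducers, streak and paraxial factors, and lateral, cardiac and blood-vessel factors, was counted in the same fits, and 1 further listed gene, Tdgf1, was not analysed here. In naive QKO cells 58 of 69 were called, 43 higher and 15 lower, with a median of 0.76 where all genes stood at -0.23 and 75.6% of them were called (33.1% higher and 42.5% lower). All genes include non-coding ones, and the list was not compared with protein-coding genes alone. The streak and paraxial factors had a median of 1.23 (12 of 16 higher, 2 lower), the inducing signals 0.76 (6 of 7 higher), the inhibitors 0.80 (3 of 6 higher, 1 lower), the receptors and transducers 0.68 (10 of 18 higher, 5 lower) and the lateral, cardiac and vessel factors 0.35 (12 of 22 higher, 7 lower). Hes7, a clock gene of the paraxial mesoderm, rose by 3.38 ± 0.25 (limma adjusted p = 2.92e-17), more than Tbx6. Its mean in naive WT cells was low, 0.32 times the median gene beside 0.80 for Tbx6. Foxh1, a partner of SMADs in Nodal signalling, rose by 2.95 ± 0.29 (adjusted p = 3.23e-13). Tek, the endothelial angiopoietin receptor, changed by -1.53 ± 0.09 (limma adjusted p = 5.16e-21). Twist1, a bHLH factor of mesoderm and neural crest, changed by -1.60 ± 0.29 (adjusted p = 2.64e-06), to a low mean of 0.29 times the median gene in QKO.

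In naive LBRKO 43 of 69 were called (39 higher, 4 lower, median 0.58), beside 56.6% of all genes, led by Gata2, a blood and vessel factor, at 1.70 ± 0.16 (limma adjusted p = 1.03e-12) and Bmpr2, a BMP receptor, at 1.64 ± 0.11 (adjusted p = 1.07e-17), with Tek at -0.66 and Snai2 at -0.61 called lower. In naive TKO 37 were called (32 higher, 5 lower, median 0.43), beside 49.4% of all genes. Called higher were Nodal, the inducer of the streak, at 1.66 ± 0.21 (limma adjusted p = 6.66e-09) and Hes7 at 1.66. Called lower were the inhibitor Cer1 at -1.16 ± 0.27 and Tek at -0.68. Of the 6 inhibitors tested, 2 were called higher and 1 lower (median 0.22). In EpiLCs 16 of 69 were called in LBRKO, all higher (median 0.12), 17 in TKO (15 higher, median 0.26) and 29 in QKO (27 higher, median 0.25), beside 23.4%, 18.6% and 36.1% of all genes. Bmpr2 (1.44 ± 0.11) and Lrp6, a Wnt co-receptor (1.40 ± 0.10), led in EpiLC LBRKO (limma adjusted p = 9.56e-15 and 2.72e-15). Meox1 (0.68) and Acvr2b (0.58) led in EpiLC TKO, and Foxh1 (1.43) and Hes7 (1.20) in EpiLC QKO. Part of the WT cells, from which LBRKO cells were made, carried trisomies, and the study gives no karyotype for LBRKO. The part of extra chromosome copies in the changes of listed genes, in either stage, was not tested. Between naive and EpiLC WT cells 35 were called for LAP2B (25 higher, 10 lower), 16 for LMNB1 (10 higher, 6 lower) and 0 for IGG, beside 32.2%, 13.4% and 0.49% of all genes. Nkx2-5, a cardiac factor, was higher in EpiLCs for LAP2B (1.60 ± 0.24) and LMNB1 (0.95 ± 0.28), and Foxa2, a factor of the anterior streak and endoderm, was lower for both (-0.96 ± 0.21 and -0.80 ± 0.22). On the spike-in scale of naive QKO cells 10 of the 69 were called higher and 32 lower (median -0.46, all genes -1.24), beside 10.1% and 65.5% of all genes.

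QKO cells are a single clone made from TKO cells by editing Lbr, so effects of Lbr and of the clone cannot be told apart. In naive cells 3 of 8 members were higher in QKO than in TKO. These were Tbx6 and Mixl1, as above, and T (Brachyury) by 0.53 ± 0.22 (limma adjusted p = 0.0339). Of all genes 53.5% were called (26.4% higher and 27.2% lower), and 56% had libraries that did not overlap. The T (Brachyury) call was lost without QKO replicate 1 or 3 (0.50 and 0.52, adjusted p = 0.085 and 0.075) or TKO replicate 1 or 3 (0.41 and 0.42, adjusted p = 0.15 each), and with scaling by the mean gene (0.48, adjusted p = 0.067). Mesp1 was higher in every QKO library than in any TKO library, by 0.59 ± 0.28, and missed the threshold (adjusted p = 0.0676). With a pseudocount of 0.5 times the median Mesp1 passed (0.44, limma adjusted p = 0.043). In EpiLCs limma called 0 members between QKO and TKO (1.2% of all genes called), 1 at an unadjusted p under 0.05 (Tbx6), and edgeR 0.

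The pattern over the 24 LAP2B libraries was compared between each member and all other genes, on another chromosome or over 1 Mb away, by the root mean square difference of their centred log2 relative values. The closest gene to Tbx6 was Rangap1 at 0.18, where the median gene lay 0.98 away and the SD of Tbx6 itself was 0.83. Mixl1 was closest to Agfg2 (0.16, median gene 0.68), Mesp1 to Iglon5 (0.23, median gene 0.69), Eomes to Rassf5 (0.16, median gene 0.55), Kdr to Glis3 (0.16, median gene 0.53), T (Brachyury) to Iqcf3 (0.22, median gene 0.60), Gsc to Slc66a2 (0.26, median gene 0.64) and Hand1 to an unnamed lncRNA gene on chromosome 1 (0.21, median gene 0.59). None of these was another member.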

How the data were processed

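LAP2B, LMNB1 and IGG CUT&RUN was analysed in 36 libraries, 12 groups of 3 as the labels give them. The authors aligned reads to mm39 and to the yeast genome sacCer3 for the spike-in. Bowtie2 2.3.5.1, SAMtools 1.10 and deepTools are named in their processing notes. The deposited values are a coverage signal, spike-in scaled RPKM in 1 kb bins brought to genes by a rule that the sources used here do not give. It was inferred from the values as a sum over the bins a gene touches, with neighbouring bins of equal value counted once. In 343 of 343 sets of genes within the same single bin the values were equal. Of 900 values of 25 longer genes whose bins all hold a single-bin gene, 815 equalled the full sum and all 900 the sum with equal neighbouring bins counted once. Recovered reads of a gene can therefore be too low, and which bins of a member were dropped was not recoverable. The sums per library also count bins shared between genes more than once, so they are not depths. Whole reads were recovered for 99.923 to 100% of values (tolerance 0.05). Because the spike-in scaling assumes an equal amount of yeast DNA in each tube, an error in it moves all genes of a library together, and the relative scale removes it.

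Values were tested as log2(value + 0.1 times the table's median) with limma 3.58.1 (R 4.3.3), two-sided with Benjamini-Hochberg adjustment over the 70381 genes left after leaving out the lowest 0.1 of genes by mean. Fold changes on this scale understate those of low genes. The 24 LAP2B libraries shared a single fit, and LMNB1 and IGG were fitted apart. Antibodies were compared only by percentile, apart from spike-in means of LAP2B and IGG printed side by side without a test. Alternatives were a pseudocount of 0.5 times the median, no filter, the mean gene as scale, fits of only the groups compared, the replicate number as a block, edgeR 4.0.16 on the recovered reads, and leaving out each library. On data simulated for naive QKO against WT over 70381 genes, limma recovered 57% of 100 genes changed 2-fold and 98% of 100 changed 4-fold. The simulation drew all groups from WT means, gave every gene the same spread (dispersion 0.0254) and left all other genes unchanged. In the measured comparison 75.6% of all genes were called, so these shares do not give its power.

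Replicates of a group differed by 3.34 to 12.3 times the sampling noise (chi-square over degrees of freedom), and none were merged. Nothing says that replicates came from separate cultures, so p-values measure the spread between libraries, which may be technical. All 8 members were named in every comparison. Of the gastrulation list, at most 2 genes per direction were named, those with the largest change among called genes whose libraries did not overlap, and for each member the most similar gene. The members and lists were chosen with earlier results of these data known. Tables of transposable elements and 2 H3K9me3 samples were not used here.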

Additional observations from a re-analysis of the deposited data

Results flagged for a closer look

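These results stood out because the effect of a mutant on LAP2B over a member differed between naive cells and EpiLCs by the limma interaction, on the relative log2 scale. Mixl1 differed by -1.42 for LBRKO and -1.08 for QKO. Mesp1 differed by -1.14 for LBRKO and -1.3 for QKO. Tbx6 differed by -1.32 for QKO, and T (Brachyury) by 1.09 for TKO. All other mutant effects on the 8 members were not shown to differ between stages in this test. Groups of 3 libraries are too small for a test of single outlying libraries.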

How the results depend on the processing

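Leaving out each library in turn gave these counts of members called: on the relative scale 3 to 6 in naive LBRKO, 1 to 4 in naive TKO, 4 to 6 in naive QKO, 0 to 0 in EpiLC LBRKO, 0 to 3 in EpiLC TKO, 1 to 1 in EpiLC QKO, 2 to 3 for naive QKO minus TKO, 0 to 0 for EpiLC QKO minus TKO, and 0 to 1 for LAP2B between WT stages (0 to 0 for LMNB1 and IGG). Counts over all 70381 genes moved as well. They were 34538 to 38585, 28281 to 33926 and 50057 to 52103 in naive LBRKO, TKO and QKO. In EpiLCs they were 12783 to 14945, 5612 to 12414 and 18403 to 23658. For QKO minus TKO they were 32286 to 37238 in naive cells and 66 to 729 in EpiLCs. Between WT stages they were 14332 to 23253 (LAP2B), 1679 to 13735 (LMNB1) and 8 to 528 (IGG). The interactions gave 1 to 3 members for LBRKO, 0 to 2 for TKO and 3 to 4 for QKO, beside 9399 to 15596, 3919 to 7711 and 28387 to 33122 of all genes. On the spike-in scale the ranges of members called were 2 to 7, 1 to 3 and 4 to 5 in naive LBRKO, TKO and QKO, 0 to 0, 0 to 0 and 1 to 5 in EpiLCs, and 0 to 1, 0 to 2 and 0 to 5 for LAP2B, LMNB1 and IGG between stages. In the same order, the ranges over all genes were 24271 to 31656, 25909 to 39036 and 50216 to 52132 in naive cells. In EpiLCs they were 3004 to 5838, 277 to 13904 and 30313 to 44164. Between stages they were 1831 to 10728, 0 to 12840 and 0 to 11675. Other settings gave the following counts of members, with the share of all genes called in brackets. With the mean gene as scale, the count became 6 in naive LBRKO (56.8%), TKO (48.3%) and QKO (74%). It became 3 in EpiLC TKO (21.3%), 2 in EpiLC QKO (37.8%) and 2 for naive QKO minus TKO (54.1%). It became 4 for the LBRKO interaction (20.5%), 2 for LAP2B (31%) and 1 for LMNB1 (13.3%) between stages, and Kdr in naive TKO turned to 0.0227. Without the filter on low values the count became 4 in naive TKO (48.1%) and 4 in naive QKO (77%). It became 2 in EpiLC QKO on both scales (33.5% relative, 54.2% spike-in) and 1 for the LBRKO interaction (16.5%). For LAP2B between stages it became 2 (relative, 29.7%) and 0 (spike-in, 4.16%). With only the groups compared the count became 3 in naive LBRKO (51.2%), 2 in naive TKO (41.4%) and 1 for the LBRKO interaction (17.1%), and with edgeR 1 for the latter (19.1%). The larger pseudocount gave 4 for naive QKO minus TKO (53.2%), adding Mesp1. The replicate block gave 2 for LAP2B between stages (32.1%), adding Mixl1 (limma adjusted p = 0.05), and changed no other call on a member. Same-numbered libraries of a mutant and WT, or of both WT stages, correlated at -0.25 to 0.18, which gave no clear sign of pairing. Mutants were not compared with each other in this way. Of 212 values of called members under these settings other than left-out libraries, 199 stayed called in the same direction, 12 were no longer called and 1 reversed, and of 282 with a library left out 233 stayed called and 49 did not. Over all genes, calls between stages fell without the filter from 345 to 0 (IGG, 563 with the larger pseudocount), from 9451 to 708 (LMNB1) and from 5809 to 0 (LMNB1, spike-in), and with the block to 6024 and 173 for LMNB1 on these scales. Without the filter they also fell from 847 to 255 for EpiLC QKO minus TKO and, on the spike-in scale, from 6655 to 4264 in EpiLC TKO and from 8546 to 2925 for LAP2B between stages. The cause was not tested. Gsc and Mesp1 had the fewest recovered reads of the members.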
